A study of Homo sapiens with 9 samples.

Results

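The 6 arrays labelled replicate 1 and replicate 2 of ALL-SIL, a human T cell acute lymphoblastic leukemia (T-ALL) line grown in suspension, were compared with each other, of 9 arrays in the series. The arrays are one-colour Agilent slides of a custom design with probes for mRNAs and long non-coding RNAs (lncRNAs). Each replicate number held 3 samples, collected after electroporation with a control siRNA, with *PHF6* siRNA1 or with *PHF6* siRNA2, at 96 h by most labels and at 72 h by a free-text description. The members were chosen by their titles and not by any measured value, and the question was how the state of the cells differed between replicate 2 and replicate 1, whatever siRNA they had received. The series calls the replicates independent and biological, and all cells were of the same established line in the same medium with fetal bovine serum. Every sample had been electroporated, so no array shows cells without that handling. The line stands for a single leukemia.

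Heat shock genes encode chaperones, proteins that keep other proteins folded or refold them. Inducible members such as *HSPA1A* are nearly silent in resting cells and are transcribed within minutes once heat shock factor 1 (HSF1) is released by misfolded protein and binds repeats of short GAA and TTC units in their promoters. Heat, metals, proteasome inhibition and other insults to protein folding all raise them, whereas the constitutive chaperones of the same families change little.

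Of 57176 probes, 32125 were well above background on at least 3 of the 6 arrays and were tested, and 28015 were so on all 6. The difference between replicate 2 and replicate 1 was taken within the 3 treatment pairs and tested with limma at a Benjamini-Hochberg adjusted p of 0.05 over all tested probes. Values are normalized log2 levels, and values of 3 arrays follow the order control siRNA, *PHF6* siRNA1 and *PHF6* siRNA2. The model used keeps background in the signal, so differences of dim probes are understated. *PHF6*, the target of the siRNAs and a chromatin-associated zinc finger protein, was at 11.06 and 11.16 with the control siRNA in replicates 1 and 2 and between 9.19 and 9.68 on the other 4 arrays, the order that the labels call for. Its difference between the replicates was 0.16 ± 0.11 (SE, adjusted p = 0.44).

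The labels give each array a replicate number and do not say whether the 3 arrays of a number came from 1 culture. If they did, the p-values read the spread between the treatment arms of 2 cultures and not the spread between cultures. Replicate 1 lay in column 1 and replicate 2 in column 2 of a single slide, in the same 3 rows, so culture, column and any processing step shared by a replicate number cannot be told apart. Well above background were 31815 to 32642 probes in replicate 1 and 29694 to 33742 in replicate 2, ranges that overlap, and no spot was saturated. The 3' minus 5' signal of *GAPDH*, a measure of RNA integrity, ranged from 2.50 to 2.72 log2 units in replicate 1 and from 2.41 to 2.64 in replicate 2. The bright spike-in RNAs averaged 14.46 to 14.65 log2 units in replicate 1 and 14.71 to 14.91 in replicate 2, without overlap, and their part in the results was not tested. The T cell list reached a summed level of 18.02 to 18.19 in replicate 1 and 18.11 to 18.28 in replicate 2, with 26 of its 28 genes above background on all 6 arrays. Of the markers of other cell types, *CD163*, *S100A8* and *S100A9* of macrophages and monocytes were not well above background on any of the 6. Nor were *MS4A1* and *CD22* of B cells, *HBB* of erythroid cells and *EPCAM* and *COL1A2* of epithelial cells and fibroblasts. Other members were well above background on all 6, namely 4 of 15 macrophage and monocyte, 5 of 11 B cell and 4 of 9 NK cell markers. The same held for 6 of 9 erythroid and platelet and 4 of 11 fibroblast and epithelial markers.

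The differences were broad. Of the tested probes, 2258 were called, or 7.03%, with 1204 higher and 1054 lower in replicate 2, and 7485 had an unadjusted p under 0.05. With 1 probe a gene, 456 of 14328 genes were higher (3.18%) and 597 lower (4.17%). Of these, 6 and 8 passed the filter only through the replicate in which they were brighter, and so had to differ. All 1053 called genes had the same sign in the 3 pairs and 957 had no overlap between the replicates, against 25.8% of all tested genes without overlap. The calls were made on these same 3 pair differences, so both counts follow largely from the calls and are a description. The share of all genes with the same sign is not given. The rises were larger than the falls, since 66 called genes were higher by more than 1 log2 unit and 36 lower by as much, and 8 were higher by more than 2 log2 units and 0 lower by as much. Between the lower and upper 0.05 quantiles the gene differences ran from -0.45 to 0.40, with a median of -0.04. Probes for lncRNAs were called at a share of 5.28% (445 of 8425) and the other probes at 7.65% (1813 of 23698). Across 32086 probes the differences of the 3 pairs correlated at 0.32 to 0.55, as a description, since the arrays share a slide and probes are not independent. The count fell to 1155 without the *PHF6* siRNA1 pair. On Feature Extraction's processed signal it was 89 with the same model and 10 with scaling to the 75th percentile, and the share of calls that were higher moved from 53.3% to 74.2% and 80.0%, while all 2258 reported calls kept their sign in both.

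**Figure D1:**
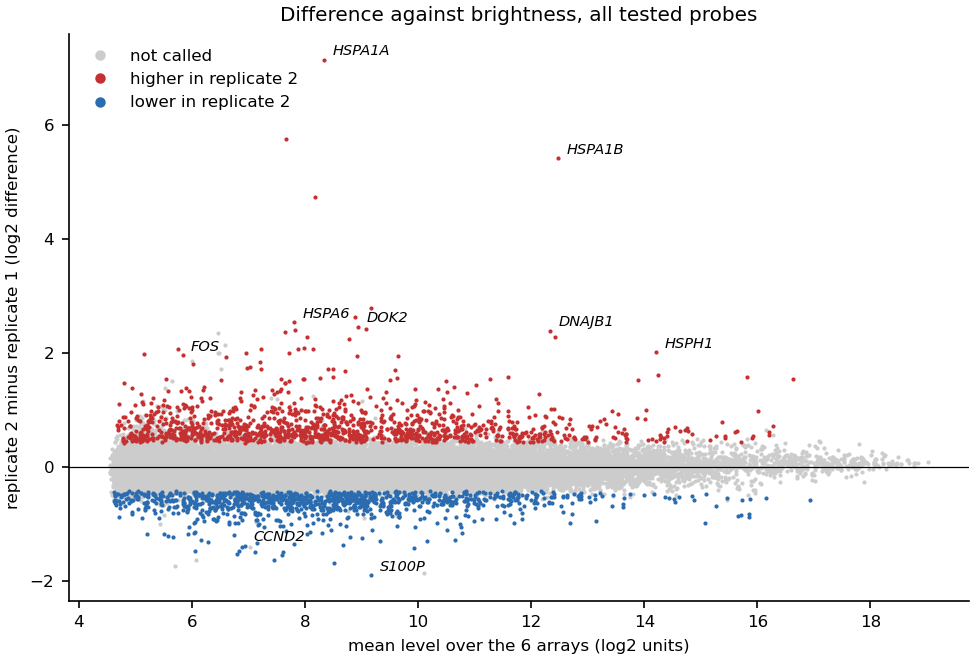
Difference of replicate 2 minus replicate 1 (y axis, log2) against the mean level over the 6 arrays (x axis, log2) for each of 32123 tested probes with a value, red where higher and blue where lower at an adjusted p under 0.05, gray otherwise. *HSPA1A* (7.14), a second probe of *HSPA6* (5.74, unlabelled) and *HSPA1B* (5.41) stand at the top, and *S100P* is the lowest called gene at -1.90.

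The largest rises in replicate 2 were those of inducible heat shock genes. *HSPA1A*, the main stress-induced HSP70, was at 4.67, 4.72 and 4.93 in replicate 1 and at 9.81, 12.83 and 13.11 in replicate 2. All replicate 2 arrays lay above all replicate 1 arrays, and the control siRNA array was the lowest of replicate 2. In replicate 1 the probe was well above background on 2 of 3 arrays, at levels close to background. The difference was 7.14 ± 0.49 (SE, adjusted p = 0.00047), or 141-fold on this scale. Its sister gene *HSPA1B*, whose coding sequence is almost identical so that the probes may share targets, was at 9.997, 9.58 and 9.73 in replicate 1 and at 14.68, 15.53 and 15.31 in replicate 2. Here too the replicates did not overlap, and the difference was 5.41 ± 0.21 (adjusted p = 2.7e-05), or 42.4-fold.

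*HSPA6* encodes an HSP70 that is made almost only under strong stress. It was at 6.68, 6.40 and 6.54 in replicate 1 and at 7.74, 9.64 and 9.83 in replicate 2, a difference of 2.53 ± 0.37 (adjusted p = 0.0074). A second probe of the gene differed by 5.74 (adjusted p = 0.00039), so the direction was shared and the size was not. *DNAJB1*, the HSP40 partner that delivers clients to HSP70, was at 11.23, 11.10 and 11.07 in replicate 1 and at 13.40, 13.79 and 13.39 in replicate 2, a difference of 2.39 ± 0.13 (adjusted p = 0.00024). For each of these 4 genes the smallest of the 3 pair differences was that of the control siRNA arrays, from 1.06 for *HSPA6* to 5.13 for *HSPA1A*. With 1 array for each treatment and replicate, a difference between treatments in this contrast cannot be tested. An exact permutation within 3 pairs has 8 arrangements and cannot give a two-sided p under 0.25, which is what these 4 genes gave. With an intensity trend and a robust prior, *HSPA1A* and *HSPA6* lost their calls (adjusted p = 0.090 and 0.18, within ranges over the alternatives of 1.6e-36 to 0.090 and 5.4e-12 to 0.18). On Feature Extraction's processed signal 3 of the 4 genes stayed called with the same model and 1 with scaling to the 75th percentile. Over the alternatives the limma adjusted p reached 0.0505 for *DNAJB1* and at most 0.04997 for *HSPA1B*.

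The 250 bases before the start of 4 of the genes that rose are shown, since heat shock elements are made of alternating GAA and TTC units, and were read from RefSeq on build GRCh38.p14. Capitals mark each match to GAANNTTC or TTCNNGAA, which read the same on both strands and which may overlap in runs of more units.
*HSPA1A* (chr6:31815293-31815542, plus strand): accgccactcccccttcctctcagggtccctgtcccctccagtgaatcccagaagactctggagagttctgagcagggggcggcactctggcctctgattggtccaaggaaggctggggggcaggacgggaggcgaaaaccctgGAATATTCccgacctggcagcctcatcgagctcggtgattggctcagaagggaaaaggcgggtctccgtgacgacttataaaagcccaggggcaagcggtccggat
*HSPA1B* (chr6:31827488-31827737, plus strand): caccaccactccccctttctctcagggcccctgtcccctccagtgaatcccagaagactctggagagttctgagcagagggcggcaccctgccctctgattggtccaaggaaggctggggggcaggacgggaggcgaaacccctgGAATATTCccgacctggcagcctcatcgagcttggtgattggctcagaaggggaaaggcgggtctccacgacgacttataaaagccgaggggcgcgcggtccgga
*HSPA6* (chr1:161524290-161524539, plus strand): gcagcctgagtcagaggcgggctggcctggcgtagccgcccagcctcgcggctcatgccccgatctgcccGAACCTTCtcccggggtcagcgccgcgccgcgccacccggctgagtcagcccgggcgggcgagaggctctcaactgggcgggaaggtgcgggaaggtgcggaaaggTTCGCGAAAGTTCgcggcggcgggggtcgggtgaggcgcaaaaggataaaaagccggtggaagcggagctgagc
*CHORDC1* (chr11:90223050-90223299, minus strand): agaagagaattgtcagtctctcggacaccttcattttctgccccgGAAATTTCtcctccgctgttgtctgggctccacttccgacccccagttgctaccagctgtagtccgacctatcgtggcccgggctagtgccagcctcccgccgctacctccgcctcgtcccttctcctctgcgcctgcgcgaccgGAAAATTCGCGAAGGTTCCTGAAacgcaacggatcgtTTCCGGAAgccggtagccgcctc

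*HSPA1A* and *HSPA1B* had 1 match each, at the same place in windows that were 93.6% identical over their alignment. *HSPA6* held 3 matches, of which a pair overlapped in a run of 3 alternating units 74 bases before the start, and *CHORDC1* held 6 matches, 4 of them overlapping in a run of 5 units. The window of *HSPA1L* covers nearly the same bases as that of *HSPA1A* on the opposite strand (chr6:31815284-31815533), and the level of *HSPA1L*, a testis-enriched HSP70, differed by -0.07 ± 0.11 (adjusted p = 0.75). A match to either motif was present in 11.7% of all 27305 promoters of the table cut to this window and a run of 3 alternating units in 0.439%. Among the 18 called members of the inducible heat shock list, 8 held a match and 4 a run of 3, while 2 of the 4 uncalled members with a window held a match. *DNAJB1* and *HSPH1* held none in this window, nor did the called *HSP90AA1*, *DNAJB4*, *BAG3*, *HSPA4*, *AHSA1*, *STIP1*, *DEDD2* and *CACYBP*. The 4 windows shown all hold a match. The list is of genes known as heat-inducible, so its share of matches is a description, and binding of HSF1 was not tested.

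The list of inducible heat shock genes was written with earlier results of these arrays known, so its count describes the response and is no independent evidence of its direction. Of its 26 genes 25 were tested, and 18 were higher and 0 lower, against 3.18% of all genes higher. Their median difference was 0.84, against -0.04 for all genes. Beyond the genes above, *HSPH1*, an HSP110 that exchanges nucleotide on HSP70, was at 13.29, 13.12 and 13.22 in replicate 1 and at 14.86, 15.53 and 15.26 in replicate 2 (difference 2.01 ± 0.16, adjusted p = 0.00067). The replicates were again apart on every array.

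Among further members that passed the test, *DNAJB4*, an HSP40, rose by 1.71 ± 0.16, *CHORDC1*, an HSP90 co-chaperone, by 1.54 ± 0.11 and *BAG3*, which links HSP70 to autophagy, by 1.31 ± 0.15. *SERPINH1*, the collagen chaperone HSP47, rose by 1.57 ± 0.18. *HSP90AA1*, the inducible cytosolic HSP90, was at 16.29, 15.52 and 15.76 in replicate 1 and at 17.38, 17.54 and 17.27 in replicate 2, a difference of 1.54 ± 0.17 (adjusted p = 0.0027) that its 3 probes shared within 1.53 to 1.57. Smaller rises were seen for *DEDD2* (1.11), *CACYBP* (0.92), *DNAJA1* (0.84), *STIP1* (0.67), *HSPB1* (0.66), *AHSA1* (0.63), *HSPA8* (0.53) and *HSPA4* (0.50), with adjusted p between 0.0032 and 0.037. The calls of *HSPA8* and *HSPA4* were lost without the *PHF6* siRNA1 pair (0.51 and 0.47) and without the *PHF6* siRNA2 pair (0.43 and 0.47), and that of *HSPB1* without the latter (0.52).

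Members that did not pass the test included *CRYAB*, a small heat shock protein (0.78 ± 0.22, adjusted p = 0.069), the mitochondrial chaperonins *HSPE1* (0.44) and *HSPD1* (0.41), *FKBP4* (-0.03), *HSPA1L* and *HSPB8* (-0.11). Without the control siRNA pair *CRYAB* passed, at 1.08. Of 27 constitutive chaperones and heat shock factors 2 were higher and 0 lower, with a median of 0.09, against 3.18% of all genes higher. *HSP90AB1*, the constitutive HSP90, was higher by 0.60 ± 0.13, and lost the call without either *PHF6* siRNA pair (0.53 and 0.52). *DNAJB6* was higher by 0.69 ± 0.11 on its brightest probe, whereas another of its 3 probes differed by -0.20.

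**Figure D2:**
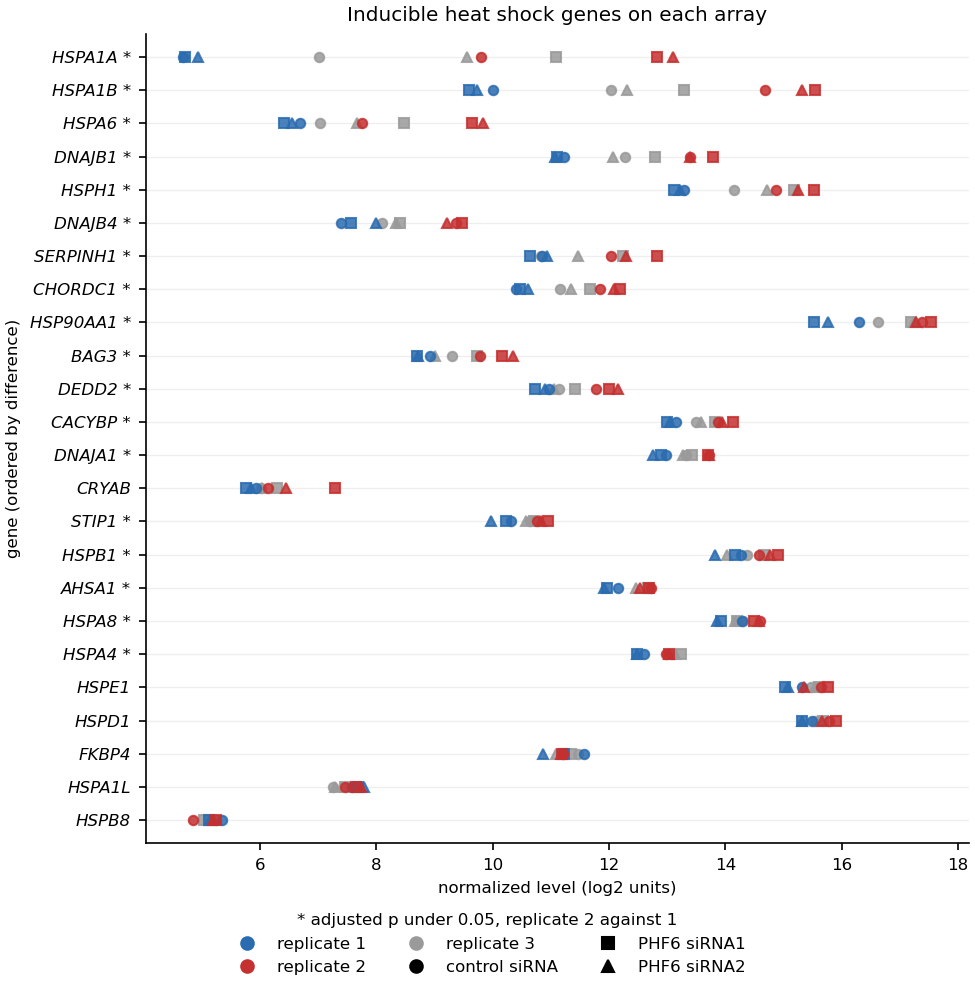
Normalized level (x axis, log2 units) of each of 24 tested inducible heat shock genes (y axis, ordered by difference) on the 9 arrays, with color for the replicate, shape for the siRNA and an asterisk for an adjusted p under 0.05 between replicates 2 and 1. For *HSPA1A* the replicate 1 arrays sit between 4.67 and 4.93, the replicate 3 arrays between 7.004 and 11.09 and the replicate 2 arrays between 9.81 and 13.11.

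Replicate 3, on a second slide, gives levels only, since slide and replicate cannot be told apart there. *HSPA1A* was at 7.004, 11.09 and 9.56 in replicate 3, *HSPA1B* at 12.04, 13.29 and 12.31 and *DNAJB1* at 12.27, 12.79 and 12.06. For these genes every replicate 3 array lay above every replicate 1 array, and below every replicate 2 array for *HSPA1B* and *DNAJB1*. Of the 456 genes higher in replicate 2, 345 had a replicate 3 mean between those of replicates 1 and 2, and 101 had all 3 arrays in between. Of the 597 lower genes, the same held for 317 and 46. These genes were called for a gap between replicates 1 and 2, into which a further value falls more readily. The counts are therefore a description, and the share over all genes is not given.

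Lists of neighboring stress responses gave fewer calls or none, against 3.18% of all genes higher and 4.17% lower. Of 25 genes of the unfolded protein response of the endoplasmic reticulum, 0 were called by limma in either direction and 4 had an unadjusted p under 0.05. The members with the lowest p were *ERN1*, the sensor IRE1 (0.46 ± 0.13, adjusted p = 0.068), and *DNAJC3* (0.36 ± 0.11, adjusted p = 0.083). Of 31 proteasome subunits 0 were called and 0 had an unadjusted p under 0.05, and *PSMA3* and *PSMB3*, the lowest in p, stood at -0.24 and 0.24. Metallothioneins and zinc response genes were higher in 5 of 10 and lower in 0, with a median of 0.54. *SLC30A1*, which exports zinc and is induced by it, was at 6.19, 5.93 and 6.21 in replicate 1 and at 7.36, 7.99 and 8.18 in replicate 2 (1.73 ± 0.17, adjusted p = 0.0018). The metal-binding *MT2A* and *MT1E* were higher by 0.83 and 0.78, so that 4 of the 9 members seen above background in both replicates were higher. *MT1F* passed the filter only through replicate 2, where it was at least 1.47-fold higher, and is a description.

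Immediate early genes were higher in 6 of 26 and lower in 1, with a median of 0.11, against 3.18% of all genes higher and 4.17% lower. Without the *PHF6* siRNA2 pair 3 were higher and the median was 0.01, and without the control siRNA pair 2 were lower. *FOS*, a subunit of the AP-1 transcription factor, was at 5.11, 4.77 and 4.70 in replicate 1 and at 5.99, 7.24 and 7.22 in replicate 2 (1.96 ± 0.28, adjusted p = 0.0068). *JUN*, its partner, rose by 1.43 ± 0.14 and *DUSP1*, a phosphatase of MAP kinases, by 1.54 ± 0.12. *DUSP6*, the phosphatase of ERK, fell by 0.87 on the log2 scale. Outside this list, *RGS2*, a regulator of G protein signaling, was at 8.68, 8.64 and 8.70 in replicate 1 and at 9.52, 11.21 and 11.13 in replicate 2 (1.95 ± 0.29, adjusted p = 0.0077). As with *HSPA1A*, the control siRNA array of replicate 2 was the closest to replicate 1.

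Target genes of ATF4, the transcription factor of amino acid shortage and the integrated stress response, were lower in 6 of 27 and higher in 1, with a median of -0.21, against 4.17% of all genes lower and 3.18% higher. *CHAC1*, which degrades glutathione, was at 11.28, 11.02 and 10.93 in replicate 1 and at 10.19, 9.60 and 10.10 in replicate 2 (-1.12 ± 0.13, adjusted p = 0.0037). *TRIB3* (-0.99 ± 0.23), a pseudokinase that feeds back on ATF4, and *SESN2* (-0.89 ± 0.14) were also lower. *PPP1R15A*, the stress-induced subunit of the eIF2 alpha phosphatase, was higher by 1.37 ± 0.13, and 2 members were higher without the control siRNA pair or the *PHF6* siRNA1 pair. Of 20 tRNA synthetases 1 was lower, *WARS1* at -0.98 ± 0.22, with a median of -0.24, and 2 were lower without the control siRNA pair.

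Genes of the cell cycle shifted by small amounts. Their counts stand against 3.18% of all genes higher and 4.17% lower. Of 35 mitosis genes 6 were higher and 0 lower, 34 had a positive difference and the median was 0.39. *PTTG1* (securin), *PLK1* (a mitotic kinase), *CDC20* (an activator of the anaphase-promoting complex) and *HMMR* were higher by 0.58, 0.57, 0.56 and 0.55. Without the *PHF6* siRNA1 pair 0 mitosis genes were called by limma (17 higher at an unadjusted p under 0.05, these 4 at 0.51, 0.52, 0.47 and 0.53), and without the control siRNA pair 2 were called, with *PTTG1* at 0.47, *CDC20* at 0.50 and *HMMR* at 0.41. Without the *PHF6* siRNA2 pair 13 were called. Of 38 genes of DNA replication and S phase 5 were lower and 0 higher, 2 had a positive difference and the median was -0.28. *CCNE1*, the cyclin of entry into S phase, was lower at -0.69 ± 0.11, *CHAF1B* at -0.64 ± 0.11, *GINS2* at -0.63 ± 0.12 and *TK1*, thymidine kinase, at -0.59 ± 0.11. Without the *PHF6* siRNA1 pair 2 of these 38 genes were called (*CHAF1B* at -0.55 and *GINS2* at -0.55 were not), and without the *PHF6* siRNA2 pair 3 (*GINS2* at -0.57 was not). *CCND2*, a cyclin of G1, was at 7.68, 7.48 and 7.73 in replicate 1 and at 6.44, 6.09 and 6.23 in replicate 2 (-1.38 ± 0.11, adjusted p = 0.00072). Of 52 replication-dependent histone genes, which share sequence between copies, 1 was higher (*H4C5*, 0.54) and lost the call without either *PHF6* siRNA pair (0.42 and 0.57).

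RNAs of T cell surface proteins changed in part. Of 26 tested genes of T cell surface and receptor signaling 4 were higher and 1 lower, with a median of 0.12. Of all genes 3.18% were higher and 4.17% lower, so the single lower call is near that share. *CD1A*, a lipid-presenting molecule of cortical thymocytes, was at 9.41, 10.07 and 10.37 in replicate 1 and at 11.25, 11.62 and 11.14 in replicate 2 (1.39 ± 0.19, adjusted p = 0.0054). Its relatives *CD1C* and *CD1B* were higher by 1.33 ± 0.15 and 0.80 ± 0.15. *CD27*, a costimulatory receptor, was lower at -0.66 ± 0.11, and at -0.58 without the *PHF6* siRNA1 pair it was not called.

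Of 13 tested genes of *NOTCH1* and its direct targets, the pathway that drives T-ALL, 2 were higher and 1 lower, with a median of 0.03. These and the counts below stand against 3.18% of all genes higher and 4.17% lower. *HEY1*, a transcriptional repressor, was higher by 2.07 ± 0.34, with its probe well above background on 1 of 3 replicate 1 arrays. *IL7R*, the interleukin-7 receptor, was higher by 1.19 ± 0.13. Its replicates overlapped, with *PHF6* siRNA2 of replicate 1 at 8.32 and the control siRNA of replicate 2 at 8.01. *DTX1*, which feeds back on NOTCH, was at 12.42, 12.16 and 11.98 in replicate 1 and at 11.50, 10.72 and 11.39 in replicate 2, lower by 0.99 ± 0.16 (adjusted p = 0.011). Genes of quiescence, trafficking and growth arrest were higher in 5 of 20 and lower in 0, among them *S1PR1*, a receptor for sphingosine 1-phosphate in lymphocyte egress (1.06 ± 0.17). Without the *PHF6* siRNA1 pair 3 were higher, and without the control siRNA pair 1 was lower. Outside these lists, *GPR183*, a receptor that guides lymphocytes to oxysterols, was higher by 1.72 ± 0.12.

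Among the 15 largest rises were further genes outside the lists. *DOK2*, an adaptor that dampens receptor tyrosine kinase signaling, was at 7.79, 7.87 and 7.46 in replicate 1 and at 9.64, 10.47 and 10.38 in replicate 2 (2.46 ± 0.19, adjusted p = 0.00056). *GBP2*, a guanylate-binding protein induced by interferon gamma, was higher by 2.06 ± 0.21, and its replicate 3 arrays were at 8.34, 9.31 and 8.19, against 7.36 to 8.71 in replicate 2. *PHYHIP* was higher by 1.80 ± 0.23. *CCL28*, a mucosal chemokine, passed the filter only through replicate 2, where it was at least 3.33-fold higher, and is given as a description.

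The 15 largest falls ran from -1.90 to -1.28. *S100P*, a calcium-binding protein, was at 10.22, 10.12 and 10.02 in replicate 1 and at 8.67, 7.67 and 8.32 in replicate 2 (-1.90 ± 0.17, adjusted p = 0.0013). *MGAT3*, which adds bisecting sugars to N-glycans, was lower at -1.68 ± 0.19, *SMOX*, spermine oxidase, at -1.63 ± 0.19 and *SLC43A1*, an amino acid carrier, at -1.42 ± 0.18. *CXCR5*, a chemokine receptor that guides cells to B cell follicles, was at 8.44, 7.91 and 8.72 in replicate 1 and at 7.12, 6.36 and 7.13 in replicate 2 (-1.49 ± 0.11, adjusted p = 0.00056). *PLXNB2*, a semaphorin receptor, was lower at -1.53 ± 0.11 on its brightest probe and at -0.39, not called, on the other. The other falls, beside that of *CCND2* above, were those of *RAB11FIP4*, *GDAP1L1*, *FFAR3*, *CNIH3*, *RIMS3*, *SLC6A9*, *DMTN* and *CFAP73*, between -1.49 and -1.28, and the second probes of *RIMS3* (-0.05) and *SLC6A9* (-0.64) were not called. In *SMOX*, *S100P* and *MGAT3* the mean of the replicate 3 arrays was below that of replicate 2, with *S100P* at 7.66, 7.74 and 7.52.

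**Figure D3:**
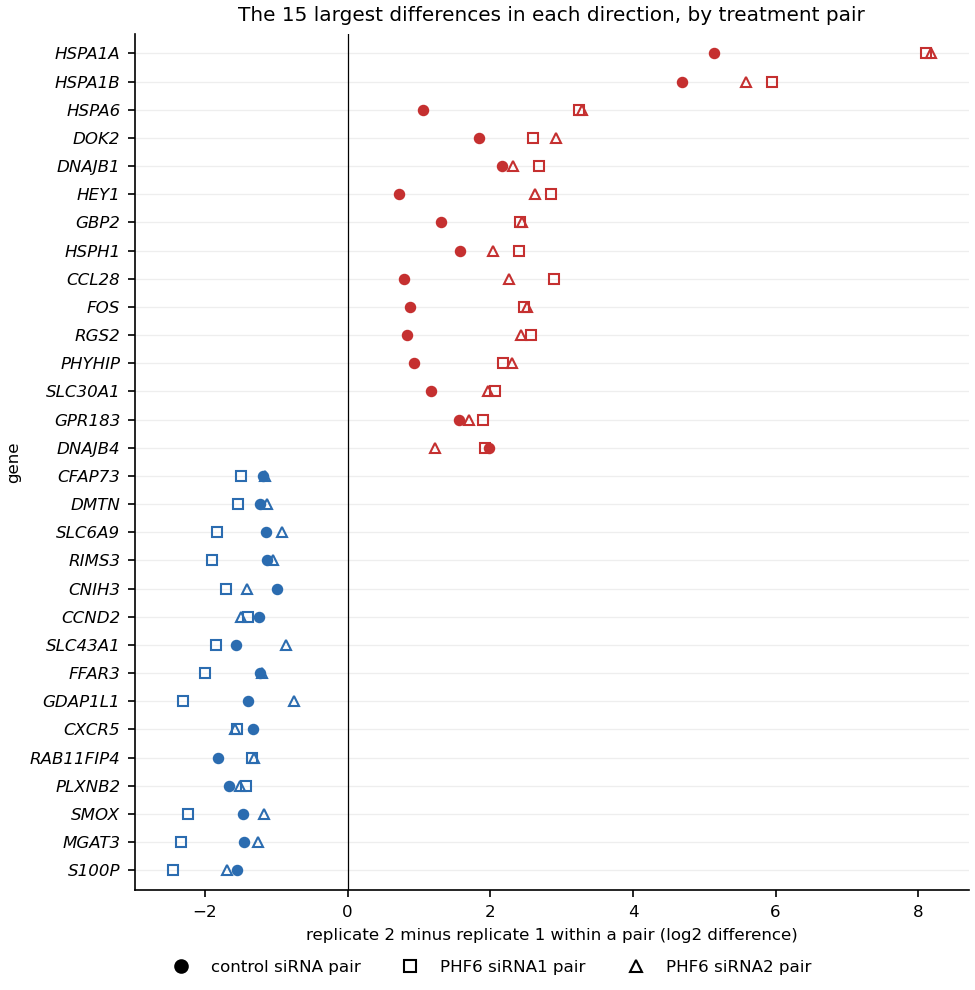
Replicate 2 minus replicate 1 within each treatment pair (x axis, log2 difference; 3 points a gene) for the 15 called genes with the largest rise (red) and the 15 with the largest fall (blue). The control siRNA pair is the smallest for most of the rises, as for *HSPA6* at 1.06 against 3.24 and 3.29.

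Death and survival genes were mixed, and their counts stand against 3.18% of all genes higher and 4.17% lower. Of 16 genes of the BCL2 family 2 were higher and 1 lower. *HRK*, a BH3-only activator of cell death, passed the filter only through replicate 2, where it was at least 2.28-fold higher, and is given as a description. Of the 15 other members, *PMAIP1* (NOXA) was higher by 0.83 ± 0.15 and *BBC3* (PUMA) lower at -0.85 ± 0.12. Of 22 p53 target genes 2 were higher and 4 lower, with a median of -0.16, and *TP53INP1* was higher by 1.36 ± 0.11. In the NF-kB list 2 of 20 were higher and 4 lower, with *TNFAIP3*, the inhibitor A20, higher by 1.19 ± 0.11 and *LTB*, lymphotoxin beta, lower at -0.69 ± 0.12 (-0.56 without the *PHF6* siRNA1 pair, not called). Of 32 interferon-induced genes 1 was higher, near the share of all genes, and 3 lower, with *CMPK2* at 0.71 and *MX1*, an antiviral GTPase, at -0.73. Without the *PHF6* siRNA1 pair 1 interferon-induced gene and 2 NF-kB genes were lower, and without the control siRNA pair 1 NF-kB gene was higher.

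Metabolic lists held few calls, against 3.18% of all genes higher and 4.17% lower, and a single call in a list of this size is near those shares. Of 33 genes of glycolysis and the hypoxia response 5 were higher and 0 lower, with a median of 0.13, led by *ANKRD37* (0.79 ± 0.11), *EGLN1* (0.67 ± 0.13), the oxygen sensor PHD2, and *ERO1A* (0.57 ± 0.12), which lost its call without the control siRNA pair and without the *PHF6* siRNA1 pair (0.51 in both). The 5 calls became 2 without the *PHF6* siRNA1 pair and 3 without the control siRNA pair. Of 18 NRF2 and oxidative stress genes 1 was higher, *HMOX1*, heme oxygenase (0.79 ± 0.18), and 2 were lower, *GCLC* at -0.73 and the cystine carrier *SLC7A11* at -0.80. *HMOX1* lost its call without either *PHF6* siRNA pair (0.57 and 0.72) and *SLC7A11* without the *PHF6* siRNA2 pair (-0.72). The cholesterol synthesis list had 2 of 23 higher, *MSMO1* and *STARD4*, the latter a sterol carrier and not an enzyme of synthesis. In that list 1 was lower (*LSS*, -0.54, and -0.48 and not called without the *PHF6* siRNA1 pair). Fatty acid synthesis had 1 of 11 each way, *ELOVL6* at -0.76 and *ELOVL5* at 0.45, the latter not called with any pair left out (0.41 to 0.49). Autophagy and lysosome genes had 1 of 25 lower, *WIPI1* at -0.57, not called without either *PHF6* siRNA pair (-0.39 and -0.59).

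By limma 0 of 56 cytosolic ribosomal proteins, 0 of 43 respiratory chain genes, 0 of 36 MYC target and ribosome biogenesis genes and 0 of 17 genes of MHC class I and peptide loading were called, with 1, 1, 5 and 1 of them at an unadjusted p under 0.05. Their medians were 0.07, -0.01, -0.13 and 0.07. These counts and those below stand against 3.18% of all genes higher and 4.17% lower. Of tested markers of other cell types, 1 of 7 macrophage and monocyte markers (*MSR1*, -0.44, not called with any pair left out), 1 of 6 B cell markers (*CD79B*, -0.73), 0 of 4 NK cell markers, 0 of 7 erythroid and platelet markers and 1 of 4 fibroblast and epithelial markers (*PDGFRB*, -0.89) were called, all lower, and 1 NK cell and 2 erythroid and platelet markers had an unadjusted p under 0.05. Leaving out a pair added at most 1 call to the respiratory chain, B cell, NK cell and erythroid and platelet lists. The summed level of the macrophage and monocyte list was 8.92 to 8.95 in replicate 1 and 8.90 to 9.02 in replicate 2, and that of the B cell list 12.78 to 13.51 and 12.80 to 13.20. The NK cell list was the highest of these, at 14.85 to 15.26 and 14.86 to 15.31. Erythroid and platelet markers summed to 10.73 to 11.04 and 10.66 to 10.82, and fibroblast and epithelial markers to 11.16 to 11.38 and 10.87 to 11.14.

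Some of the largest differences belonged to probes with no gene symbol in the tables used. The probe for BU963192 was at 5.98, 5.63 and 5.83 in replicate 1 and at 10.28, 10.34 and 11.01 in replicate 2 (4.73 ± 0.16, adjusted p = 1.8e-05), and that for ENST00000532091 differed by 2.62 ± 0.17. On the other side, an lncRNA probe for ENST00000464767 differed by -1.34 ± 0.15 and probe A_33_P3228402 by -1.32 ± 0.11. Replicates without overlap and the same sign in the 3 pairs were conditions for naming these 4 probes, and so are no result.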

How the data were processed

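ALL-SIL RNA was labeled with Cy3 and hybridized to one-colour Agilent arrays. Per array, the authors deposited the fluorescence intensity of each spot from Agilent Feature Extraction (10.5.1.1 per the file headers, 9.1 in the submitters' processing notes) and flags for outlier, saturated and well above background spots. Their deposited log2 table, normalized with VSN, served as an alternative. The VSN model (affine scaling of each array, then the inverse hyperbolic sine, with least trimmed squares at a 0.9 quantile and 7 iterations) was refitted to the median intensity of all 9 arrays without outlier spots, averaging repeated spots. Samples were grouped by the labels. Replicate 2 was compared with replicate 1 on 6 arrays by limma 3.58.1 (statmod 1.5.0, R 4.3.3), with treatment as a block, a fit also tested on simulated data. Of 32125 tested probes, 39 lacked a value on an array and 2 could not be fitted.

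Probe transcript identifiers were matched to RefSeq symbols (GRCh38.p14, names only), and the brightest probe stood for a gene. Named were the 4 heat shock markers, the 15 largest called differences each way without overlap, up to 4 called members of each of 33 lists (otherwise the 2 with the lowest p), all inducible heat shock genes, 4 probes without a symbol and *PHF6*. The 4 probes without a symbol were also drawn from called probes without overlap. Some genes that this rule names are not reported here. Members, lists and tests were chosen with earlier results of these data known. "At least" folds set the brighter mean against the lowest signal well above background on each array of the dimmer replicate. The number of arrays limits the precision.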

Additional observations from a re-analysis of the deposited data

Results flagged for a closer look

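The control siRNA array of replicate 3 lies outside the contrast of replicates 2 and 1. It entered the normalization, the alternative fit to all 9 arrays and the levels given for replicate 3. On this array the summed level of the macrophage and monocyte markers was 10.88, against 8.90 to 9.02 on the 6 arrays of replicates 1 and 2. A single gene carried it, since *C1QA*, a complement subunit, was at 10.46 there and between 5.11 and 5.57 on the 8 other arrays, while *CD163*, *C1QC* and *S100A9* were not well above background on that array. No explanation was tested.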

How the results depend on the processing

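No paired analysis was possible by replicate number because that number is itself the contrast, so arrays were paired by treatment label. The count of 2258 probes (1204 higher, 1054 lower) became 89 (66 and 23) with the model on the processed signal, 10 (8 and 2) with the 75th percentile of it, 584 (398 and 186) with no filter on dim probes and 815 (500 and 315) without pairing, and ranged from 1155 to 2454 (769 to 1226 higher, 386 to 1228 lower) when a treatment pair was left out. It lay between 2114 and 3064 with normexp and quantile normalization, the deposited table, all 6 arrays required above background, outliers retained, all 9 arrays, a trended prior or a normalization fitted to 6 arrays. The 18 inducible heat shock genes became 5 and 1 on the processed signal with the model and the percentile, 15 to 20 with a pair left out, and 13 to 21 otherwise. Mitosis genes (6 higher) became 0, 0, 0 and 0 by limma with the model on the processed signal, the percentile, no filter and no pairing (18, 22, 22 and 24 at an unadjusted p under 0.05), 12, 10, 10, 17 and 16 with normexp, the deposited table, the filter on all 6 arrays, all 9 arrays and the trended prior, and 0 to 13 with a pair left out. S phase genes (5 lower) became 0, 0 and 0 by limma with the model on the processed signal, the percentile and no filter (14, 14 and 17 unadjusted), 10 with normexp, 3 without pairing, 11 with the trended prior and 2 to 5 with a pair left out. ATF4 target genes (6 lower) became 0 and 0 by limma on the processed signal (9 and 11 unadjusted), 2 with no filter, 2 without pairing and 4 to 6 with a pair left out. *FKBP4* (-0.03) ran from -0.20 to 0.13 with a pair left out and was 0.0088 as the mean of its probes, and *HSPB8* (-0.11) ran from -0.22 to 0.088, and neither was called in any of these. Of 126 named genes, 87 calls were lost with the model on the processed signal, 100 with the percentile, 43 with no filter and 30 without pairing. The cause of these changes was not tested.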
